A study of Mus musculus with 15 samples.

Results

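The let-7 family in liver grafts of mice was followed from the first days after transplantation to long-term acceptance. Its members were taken by name: mmu-let-7a, let-7b, let-7c, let-7d, let-7e, let-7f, let-7g and let-7i, the mature arms carried by the array, which makes 8 of the 567 mouse miRNAs it measures. The rule uses names alone. Mature let-7 is an ancient family of miRNAs that base-pair with messenger RNAs through a shared seed near the 5′ end and lower their translation and stability. Its abundance is low in embryonic cells, where the protein LIN28 holds back the maturation of the precursors, and high in differentiated tissue such as adult liver. Classical targets are the messages of the RAS proteins, of HMGA2 and of LIN28 itself.

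Grafts were collected from 5 groups of 3 mice, with 1 array for each mouse. The 3 syngeneic grafts were removed 5 days after surgery, and the allografts after 5, 8, 14 or 100 days. Donors were B10.BR mice (H2-Kk) and recipients B10.D2 mice (H2-Kd), all animals were male, and their age was not given. The strain label of the syngeneic arrays names this same allogeneic pair, so the titles alone mark them as syngeneic and the strains of those grafts are unstated. Day 5 is the only time with a syngeneic group. In the later comparisons time after surgery and the allogeneic donor therefore cannot be told apart, and in whole tissue fewer cells of a type and less RNA per cell cannot be told apart either.

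The 15 arrays lay on 2 slides. Slide 1 held syngeneic replicates 1 and 2 and all arrays of day 8 and day 14, and slide 2 held syngeneic replicate 3 and all arrays of day 5 and day 100. Day 14 against day 8 and day 100 against day 5 are therefore comparisons within 1 slide, whereas day 14 against day 5 or day 100 crosses slides. Each array carried 11540 spots for miRNAs, of which 60 to 115 mouse miRNAs were detected. Replicate 1 of day 100 stood apart: it had the fewest detected, and its additive error was 13.1 intensity units where no other array exceeded 3.66. The differences of the members on day 100 are therefore also given without it. miR-122, the miRNA that marks hepatocytes, was detected on 15 of 15 arrays.

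The sequences show how close the members are, and therefore what the array has to separate. They are given 5′ to 3′ from RefSeq (GRCm38.p6), where all 8 names were matched, with the seed, bases 2 to 8, in capitals.
mmu-let-7a: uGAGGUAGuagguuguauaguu
mmu-let-7b: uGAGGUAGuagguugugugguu
mmu-let-7c: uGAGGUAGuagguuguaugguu
mmu-let-7d: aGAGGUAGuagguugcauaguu
mmu-let-7e: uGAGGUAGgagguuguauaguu
mmu-let-7f: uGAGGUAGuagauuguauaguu
mmu-let-7g: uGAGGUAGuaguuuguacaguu
mmu-let-7i: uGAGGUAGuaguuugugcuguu
All 8 are 22 bases long and share 1 seed. Counting positions from 1 at the 5′ end and writing the base of let-7a first, let-7c differs from let-7a by A19G, let-7e by U9G and let-7f by G12A. let-7b carries A17G and A19G, let-7d U1A and U16C, and let-7g G12U and U18C. let-7i is the most distant from let-7a, with G12U, A17G, U18C and A19U.

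The family is spread over 7 chromosomes and 11 hairpins in RefSeq (GRCm38.p6, all coordinates). Mirlet7a-1 (chr13:48538179-48538272), Mirlet7f-1 (chr13:48537829-48537917) and Mirlet7d (chr13:48536012-48536114) lie in a row on the minus strand. Mirlet7c-2 (chr15:85706603-85706697) and Mirlet7b (chr15:85707319-85707403) lie inside the long noncoding RNA gene Lncppara. Mirlet7c-1 (chr16:77599657-77599750) follows Mir99a at a distance of 656 bases. Mirlet7e (chr17:17830352-17830444) stands beside Mir125a within Spaca6. Mirlet7a-2 (chr9:41536716-41536811) lies between Mir100 and Mir125b-1 within the noncoding gene Mir100hg. Mirlet7g (chr9:106178840-106178927) lies within Wdr82, Mirlet7f-2 (chrX:151912346-151912428) within Huwe1 beside Mir98, and Mirlet7i (chr10:122985640-122985724) overlaps no other RefSeq gene. Mature let-7a, let-7c and let-7f each come from 2 hairpins with identical mature sequence, so the array cannot assign their signal to a locus.

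All members but let-7e were detected on all 15 arrays, and no spot of any member was saturated. The scaled signal used below is the intensity summed over the 2 probes of a member and divided by a reference value of the same array, the 75th percentile of 52 miRNAs that every array detected, so that 1 equals that percentile. All 8 members were among the 103 miRNAs tested. Differences are given on the log2 scale with limma's standard error, and p-values were adjusted over the 103 miRNAs by the Benjamini-Hochberg method. The 2 probes of a member moved in the same direction in all 8 comparisons for 6 members and in 7 of 8 for let-7c and let-7i, and never differed by more than 0.27 in log2 difference.

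The members did not move as a block. In the moderated F test of limma over the 5 groups, 6 of the 8 members passed an adjusted p of 0.05 (let-7a, let-7b, let-7c, let-7f, let-7g and let-7i), beside 64.1% of all miRNAs tested. In scaled signal let-7i was higher in the early allografts, let-7f and let-7g were lowest on day 14, and let-7a and let-7c were highest on day 100. The plot of scaled signal by array shows these 3 patterns.

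**Figure D1:**
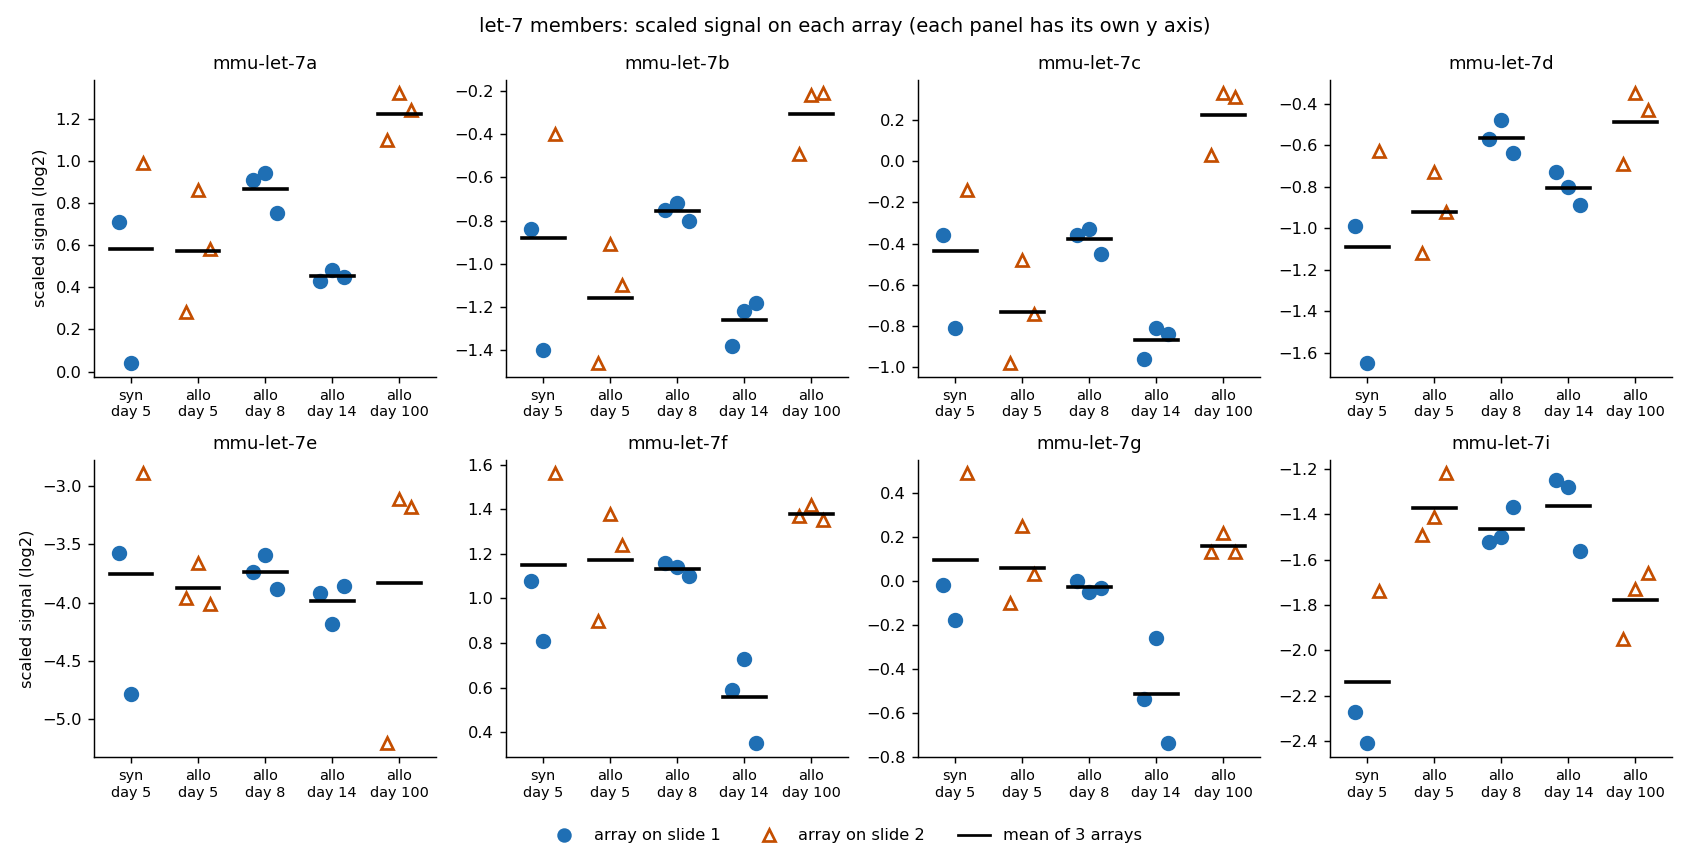
Scaled signal (log2) of each let-7 member on each of the 15 arrays, by group, with filled circles for slide 1, open triangles for slide 2 and a line at the mean of 3 arrays; each panel has its own y axis. The syngeneic arrays spread widely for every member, the 3 arrays of day 14 are the lowest of all for let-7f and let-7g, and those of day 100 are the highest for let-7a and let-7c.

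let-7i, the member that differs most in sequence from let-7a, was the 1 member called higher in the early allografts in the main fit. With a term for the slide let-7d also passed on day 8 and day 14, as given below. Its scaled signal was 0.208, 0.188 and 0.300 in the 3 syngeneic grafts and 0.356, 0.375 and 0.430 in the allografts on day 5. Day 8 gave 0.348, 0.355 and 0.387, day 14 gave 0.419, 0.412 and 0.339, and day 100 gave 0.259, 0.301 and 0.316. All 9 arrays of days 5, 8 and 14 lay above all 3 syngeneic arrays and above all 3 arrays of day 100, while day 100 overlapped the syngeneic arrays. Of all miRNAs tested 21.4% lay above every syngeneic array on day 5, and 33% did on day 8 and on day 14.

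Against the syngeneic grafts let-7i was 1.70-fold higher on day 5 (log2 difference 0.77 ± 0.18 SE, adjusted p = 0.0076, limma), 1.60-fold on day 8 (0.68 ± 0.18, adjusted p = 0.0097) and 1.71-fold on day 14 (0.78 ± 0.18, adjusted p = 0.0030). On day 100 the difference was 0.36 with a 95% interval from -0.02 to 0.74 (adjusted p = 0.13, limma). let-7i was the 1 member called higher on day 5, beside 18.4% of all miRNAs tested, the 1 called higher on day 8, beside 23.3%, and the 1 called higher on day 14, beside 27.2%. No member was called lower on day 5 or day 8, where 6.80% and 17.5% of all miRNAs were. When the fit held a term for the slide, let-7i was at 0.36 on day 5 (adjusted p = 0.21, limma), which rests on 1 syngeneic array. It was at 0.88 on day 8 (adjusted p = 0.00069) and at 0.98 on day 14 (adjusted p = 0.00025). With normexp background correction the 3 differences were 0.25, 0.23 and 0.27 and none passed (adjusted p = 0.14, 0.14 and 0.072), and with the 75th percentile taken over all mouse miRNAs they were 0.79, 0.61 and 0.70 (adjusted p = 0.081, 0.13 and 0.065). The normexp version added an offset of 50 units to each spot, and each of the 2 let-7i probes carried it into the sum. Without it the summed let-7i intensities were 74.2 to 355.9 units. The percentile over all mouse miRNAs reaches down to undetected ones, as no array detected more than 115 of the 567. The call on day 8 was lost without syngeneic replicate 2 (0.53, adjusted p = 0.051, limma).

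Markers of leukocytes rose in the same arrays as let-7i. Of 6 listed leukocyte miRNAs 5 were tested, and miR-150 was detected on no array. All 5 were called higher on day 5 and day 14, 3 on day 8 and 2 on day 100. Their summed scaled signal (log2) ranged from -0.54 to 0.81 in the syngeneic grafts, from 1.61 to 3.03 on day 5, from 1.16 to 1.42 on day 8, from 1.63 to 2.09 on day 14 and from 0.23 to 0.61 on day 100. In all 3 early groups the leukocyte sum lay above that of every syngeneic and every day 100 array, as let-7i did, and the part of leukocytes in the let-7i result was not tested.

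let-7f and let-7g, which like let-7i differ from let-7a at base 12, fell together on day 14 in scaled signal, a direction that turned when no scaling was applied. The scaled signal of let-7f was 2.11, 1.76 and 2.96 in the syngeneic grafts, 1.87, 2.61 and 2.36 on day 5, and 2.24, 2.20 and 2.14 on day 8. It was 1.5, 1.65 and 1.27 on day 14 and 2.59, 2.67 and 2.55 on day 100. The 3 arrays of day 14 were the lowest of all 15.

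For let-7g the values were 0.984, 0.880 and 1.40 in the syngeneic grafts, 0.934, 1.19 and 1.02 on day 5, and 0.998, 0.964 and 0.979 on day 8. They were 0.689, 0.838 and 0.597 on day 14 and 1.1, 1.17 and 1.09 on day 100. Again no array of another group was as low as any array of day 14. Of all miRNAs tested 21.4% lay below every syngeneic array on day 14.

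On day 14 let-7f was 1.51-fold lower than in the syngeneic grafts (-0.60 ± 0.19 SE, adjusted p = 0.019, limma) and let-7g 1.52-fold lower (-0.61 ± 0.18, adjusted p = 0.015). They were the 2 members called lower there, beside 18.4% of all miRNAs. This fall is relative to the other miRNAs of the array: with no scaling let-7f was at 0.18 and let-7g at 0.17, while the median of all miRNAs tested was at 0.705. A term for the slide gave -0.39 for let-7f (adjusted p = 0.068) and -0.41 for let-7g (adjusted p = 0.047, limma). Within slide 1, with the 2 syngeneic arrays it holds, adjusted p was 0.071 for both. The call was lost without replicate 3 of day 14 for let-7f (-0.49, adjusted p = 0.072) and let-7g (-0.49, adjusted p = 0.063), and for let-7f also without syngeneic replicate 3 (-0.39, adjusted p = 0.067).

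Hepatocyte markers moved in the same direction on day 14. All 4 of those listed (miR-122, miR-192, miR-194 and miR-148a) were called lower than in the syngeneic grafts, and their summed scaled signal (log2) ranged from 3.74 to 4.10 on day 14 against 4.91 to 5.16 in the syngeneic grafts, 4.45 to 4.70 on day 5, 4.52 to 4.63 on day 8 and 4.54 to 4.80 on day 100. Of these markers, 3 were also called lower on day 5, 4 on day 8 and 2 on day 100, when let-7f and let-7g were not. The part of the hepatocyte markers in the let-7f and let-7g result was not tested.

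Against the allografts of day 5, let-7f on day 14 was lower by 0.62 on the log2 scale, a 1.54-fold difference (adjusted p = 0.045, limma). let-7g was at -0.57, with an adjusted p of 0.052 that did not pass. let-7f was the 1 member called lower, beside 9.71% of all miRNAs, and no member was called higher, beside 2.91%. Slide and day cannot be told apart here except through the syngeneic arrays, and the fit that uses them in this way put let-7f at -0.00 (adjusted p = 0.99, limma) and let-7g at 0.02. The let-7f call also did not hold without any 1 of 10 single arrays (syngeneic replicate 1, day 5 replicates 2 and 3, all of day 8, day 14 replicates 1 and 3, day 100 replicates 2 and 3), with adjusted p from 0.050 to 0.16 and differences from -0.64 to -0.52.

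let-7a, let-7b and let-7c, which differ from one another by at most 2 bases, were highest on day 100. The scaled signal of let-7a was 1.64, 1.03 and 1.98 in the syngeneic grafts, 1.21, 1.82 and 1.5 on day 5, 1.88, 1.92 and 1.69 on day 8, 1.35, 1.40 and 1.36 on day 14, and 2.15, 2.49 and 2.36 on day 100. That of let-7c was 0.777, 0.569 and 0.910 in the syngeneic grafts, 0.507, 0.716 and 0.597 on day 5, 0.781, 0.796 and 0.731 on day 8, 0.514, 0.570 and 0.561 on day 14, and 1.02, 1.26 and 1.24 on day 100. For both members the 3 arrays of day 100 lay above the other 12. Of all miRNAs tested 12.6% lay above every syngeneic array on day 100, and 13.6% above every array of day 5.

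let-7b ran alongside, with 0.559, 0.379 and 0.759 in the syngeneic grafts, 0.363, 0.531 and 0.467 on day 5, 0.597, 0.609 and 0.574 on day 8, 0.384, 0.430 and 0.440 on day 14, and 0.711, 0.861 and 0.862 on day 100. Its day 100 arrays overlapped only with syngeneic replicate 3.

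Both groups lie on slide 2. In the fit over all 15 arrays day 100 exceeded day 5 by 0.96 ± 0.18 (SE) for let-7c, a 1.94-fold difference (adjusted p = 0.0030, limma), by 0.85 ± 0.22 for let-7b (1.80-fold, adjusted p = 0.013) and by 0.64 ± 0.21 for let-7a (1.56-fold, adjusted p = 0.037). These were the 3 members called higher, beside 7.77% of all miRNAs, and no member was called lower, beside 21.4%. Fitted to slide 2 alone, adjusted p was 0.024 for let-7c, 0.031 for let-7b and 0.048 for let-7a (limma). The let-7c call held without each of the 15 arrays in turn. That of let-7b was lost only without day 5 replicate 1 (0.70, adjusted p = 0.061), and that of let-7a without any 1 of 7 arrays (day 5 replicates 1 and 3, day 8 replicates 2 and 3, day 14 replicate 2, day 100 replicates 2 and 3; differences from 0.50 to 0.65, adjusted p from 0.050 to 0.14). let-7i ran the other way at -0.41, with all arrays of day 100 below those of day 5, at an adjusted p of 0.11 that became 0.031 when the slide entered the fit and 0.071 in a fit to slide 2 alone. Of all miRNAs tested 33% lay below in this way. Without the noisy replicate 1 of day 100 the differences were 1.03 for let-7c, 0.91 for let-7b and 0.67 for let-7a, with adjusted p from 0.0035 to 0.043 in limma. The 5 leukocyte markers were called lower in this comparison and none of the 4 hepatocyte markers was called, and their part was not tested.

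Against the syngeneic grafts, day 100 was higher by 0.66 ± 0.18 (SE) for let-7c (adjusted p = 0.020, limma), by 0.64 ± 0.21 for let-7a (adjusted p = 0.036) and by 0.60 ± 0.22 for let-7d (adjusted p = 0.049). The difference for let-7b was 0.57 (adjusted p = 0.061). The 3 members called higher stood beside 16.5% of all miRNAs, and none was called lower, beside 14.6%. A term for the slide leaves syngeneic replicate 3 as the comparison, and the differences then were 0.36 for let-7c, 0.23 for let-7a and 0.14 for let-7d and none passed (adjusted p = 0.38, 0.62 and 0.78). Without syngeneic replicate 2 they were 0.44, 0.34 and 0.29 (adjusted p = 0.093, 0.19 and 0.23), and without day 100 replicate 3 adjusted p was 0.065, 0.098 and 0.12. let-7a was also lost without day 100 replicate 1 or 2, day 8 replicate 1 or 2 or day 14 replicate 2 (adjusted p from 0.051 to 0.088). let-7d was lost without any array but syngeneic replicate 3 (adjusted p from 0.053 to 0.23). Without the noisy replicate 1 of day 100 the differences were 0.58 for let-7c (adjusted p = 0.028, limma), 0.52 for let-7a (adjusted p = 0.084), 0.52 for let-7d (adjusted p = 0.076), 0.48 for let-7b (adjusted p = 0.11) and 0.26 for let-7i (adjusted p = 0.20).

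Day 14 and day 100 differed for most of the family. Day 14 was lower by 1.09 ± 0.18 (SE) for let-7c, a 2.13-fold difference (adjusted p = 0.00073, limma), by 0.95 for let-7b (1.94-fold), by 0.83 for let-7f (1.78-fold), by 0.76 for let-7a (1.70-fold) and by 0.67 for let-7g (1.59-fold), with adjusted p from 0.0050 to 0.0099. For these 5 members and for let-7d no array of day 14 reached the lowest array of day 100. This was so for 25.2% of all miRNAs tested, and 39.8% lay above in the same way. The 5 members called lower stood beside 18.4% of all miRNAs, and none was called higher, beside 33.0%. Each of the 5 calls held without any single array. With no scaling they kept their sign but did not pass (adjusted p from 0.073 to 0.35), and the median of all miRNAs tested was then at 0.407. Without replicate 1 of day 100 the 5 differences ranged from -1.11 to -0.61 (adjusted p from 0.00096 to 0.017, limma). Slide and day coincide here. Estimating the slide through the syngeneic arrays gave -0.64 for let-7c, -0.23 for let-7b, -0.21 for let-7f, -0.15 for let-7a and -0.08 for let-7g, with adjusted p from 0.15 to 0.80 (limma). All 4 hepatocyte markers were called lower and all 5 leukocyte markers higher in this comparison, and their part was not tested.

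let-7i was at 0.42 in this comparison, with all arrays of day 14 above those of day 100 (adjusted p = 0.066, limma). It was at 1.02 with a term for the slide (adjusted p = 0.016) and at 0.41 without the noisy array (adjusted p = 0.0498).

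Day 14 and day 8 share a slide. The arrays of day 14 lay below all arrays of day 8 for let-7a, let-7b, let-7c, let-7d, let-7f and let-7g, with differences from -0.58 (let-7f) to -0.24 (let-7d). Of all miRNAs tested 27.2% lay below in this way and 19.4% above. In limma none of the 8 members passed, with adjusted p from 0.091 to 0.80, and 4 had an unadjusted p under 0.05. Of all miRNAs 5.83% were called lower and 0% higher. With a fit on these 2 groups alone 4 members were called lower, by the methods' t-test 6 were before and 3 after Benjamini-Hochberg adjustment, and with a term for the slide let-7f was (adjusted p = 0.034, limma), though not in a fit to slide 1 alone (-0.58, adjusted p = 0.059). The 5.83% belongs to the limma fit over all groups. The share of all miRNAs called by these other tests is not given here, so their counts have no background.

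**Figure D2:**
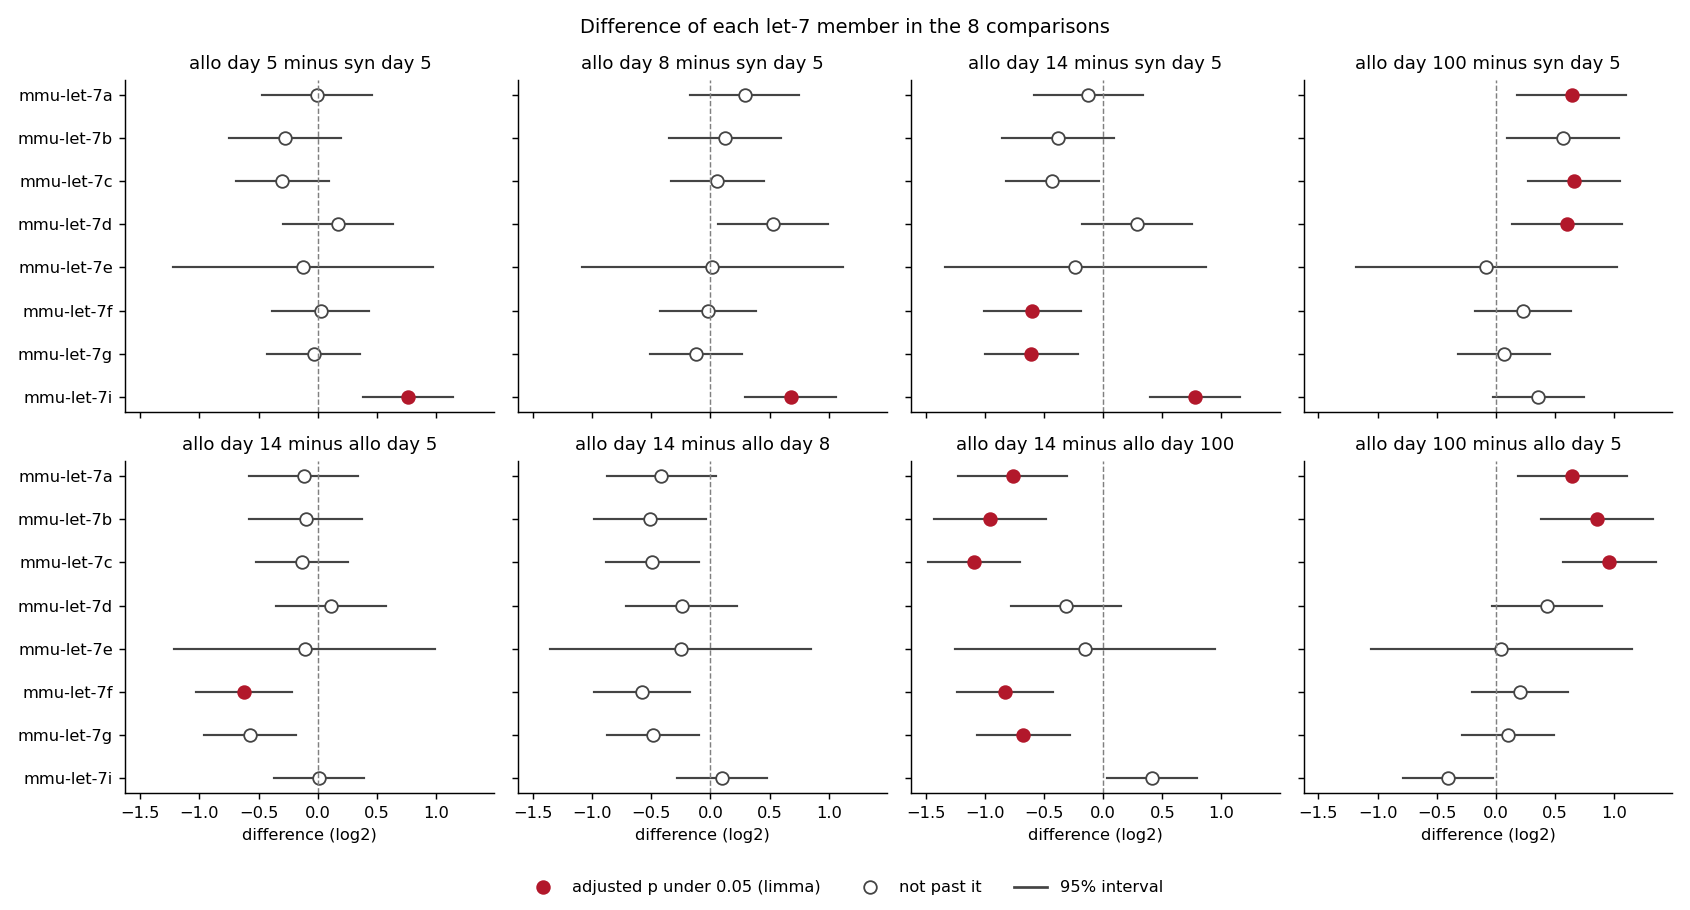
Difference (log2) of each let-7 member in the 8 comparisons, with its 95% interval from limma; filled points passed an adjusted p of 0.05. let-7i lies furthest to the right in the 3 comparisons of early allografts with syngeneic grafts, with let-7d near it on day 8 (0.53 against 0.68). let-7a, let-7b, let-7c, let-7f and let-7g lie on the left in day 14 minus day 100.

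let-7d and let-7e complete the family. let-7d, which carries U1A and U16C, was at 0.503, 0.318 and 0.647 in the syngeneic grafts, 0.461, 0.602 and 0.530 on day 5, 0.672, 0.719 and 0.644 on day 8, 0.603, 0.574 and 0.540 on day 14, and 0.620, 0.785 and 0.743 on day 100. It did not pass the F test (adjusted p = 0.11, limma). With a term for the slide it was higher than in the syngeneic grafts on day 8 (0.76, adjusted p = 0.0093, limma) and also on day 14 (0.52, adjusted p = 0.046). Fitted to slide 1 alone, the same differences had an adjusted p of 0.019 on day 8 and 0.061 on day 14 (limma).

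let-7e was close to the background. It was detected on 13 of 15 arrays, missing on syngeneic replicate 2 and on day 100 replicate 1, and on the latter it entered the fit at the floor. Its differences had standard errors of 0.51 and none passed. The 95% interval of its difference from the syngeneic grafts ran from -1.34 to 0.87 on day 14 and from -1.18 to 1.02 on day 100. Without that array let-7e was at 0.43 on day 100 (adjusted p = 0.40, limma) where it had been at -0.08.

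On days 5, 8, 14 and 100 the median difference of the 8 members from the syngeneic grafts was -0.02, 0.09, -0.31 and 0.47. Over all 103 miRNAs tested it was 0.12, 0.14, 0.07 and 0.00. Between allografts the median of the members was -0.11 for day 14 minus day 5, -0.45 for day 14 minus day 8, -0.72 for day 14 minus day 100 and 0.32 for day 100 minus day 5, against -0.00, -0.07, 0.10 and -0.14 over all miRNAs. The 8 members against the syngeneic grafts carry the spread of those 3 arrays, whose mean let-7 signal (log2) ranged from -1.30 in replicate 2 to -0.34 in replicate 3. The 3 arrays of day 14 ranged from -1.04 to -0.92.

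Dividing each member by the mean of the family on the same array removes that shared spread and the scaling with it, and asks how the composition of the family changed. A difference on this measure shows unequal change between members, and not which member changed. A gain or loss below is meant in this relative sense. On this measure let-7i was -1.48, -1.11 and -1.39 (log2, relative to the family mean) in the syngeneic grafts, and -0.50, -0.83 and -0.45 on day 5. It was -0.92, -0.92 and -0.70 on day 8, -0.28, -0.36 and -0.53 on day 14, and -1.24, -1.47 and -1.35 on day 100. The 9 arrays of days 5, 8 and 14 lay above the 6 others. The share of all miRNAs that separated in this way on the relative measure was not counted. The gain over the syngeneic grafts was 0.74 ± 0.15 (SE) on day 5 (adjusted p = 0.0040, limma), 0.48 ± 0.15 on day 8 (adjusted p = 0.025) and 0.94 ± 0.15 on day 14 (adjusted p = 0.00027).

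On day 100 the relative level of let-7i differed from the syngeneic grafts by -0.02 (adjusted p = 0.93, limma). It was lower than on day 5 by 0.76 (adjusted p = 0.0021), a comparison within slide 2, and day 14 exceeded day 100 by 0.96 (adjusted p = 0.00024). With a term for the slide the gain on day 5 was 0.80 (adjusted p = 0.037), on day 8 it was 0.45 (adjusted p = 0.065), on day 14 it was 0.91 (adjusted p = 0.0016), and day 14 minus day 100 was 0.87 (adjusted p = 0.083). The calls on days 5 and 14 held without each array in turn, whereas that on day 8 was lost without syngeneic replicate 1 or 3 or any 1 array of day 8 (adjusted p from 0.057 to 0.11). With normexp the relative gain of let-7i was 0.36 on day 5 (adjusted p = 0.12) and 0.18 on day 8 (adjusted p = 0.23), and with the dimmer probe 0.72 (adjusted p = 0.11) and 0.43 (adjusted p = 0.22), so that neither passed (limma). The drop from day 5 to day 100 did not pass with the dimmer probe either (-0.63, adjusted p = 0.061).

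Other members also shifted in composition. Over the syngeneic grafts let-7d gained 0.33 on day 8 (adjusted p = 0.029, limma) and 0.45 by day 14 (adjusted p = 0.0045). Its scaled signal itself differed by 0.53 on day 8 (adjusted p = 0.063) and 0.28 on day 14 (adjusted p = 0.31, limma). On day 14 let-7f lost 0.43 (adjusted p = 0.025) and let-7g 0.44 (adjusted p = 0.030). let-7b and let-7c gained 0.50 (adjusted p = 0.0042) and 0.60 (adjusted p = 0.0021) from day 5 to day 100, and were lower on day 14 than on day 100 by 0.41 (adjusted p = 0.0091) and 0.55 (adjusted p = 0.0018).

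Of these, the let-7d gain on day 8 did not pass with a term for the slide (adjusted p = 0.061, limma) and without syngeneic replicate 2 or 3, day 5 replicate 3 or any 1 array of day 8 (adjusted p from 0.057 to 0.10). The relative differences of let-7f and let-7g on day 14 did not pass without syngeneic replicate 2 or day 14 replicate 1 or 3 (adjusted p from 0.056 to 0.11). Nor did they with normexp, at -0.23 for let-7f (adjusted p = 0.15) and -0.27 for let-7g (adjusted p = 0.082, limma). With the dimmer probe they were at -0.48 and -0.45 and did not pass (adjusted p = 0.17 and 0.18, limma). The dimmer probe also ended both let-7d calls, at 0.34 on day 8 (adjusted p = 0.26, limma) and 0.45 on day 14 (adjusted p = 0.097). The standard error of let-7d was then 0.19, where it had been 0.11. The let-7b difference between days 14 and 100 had an adjusted p of 0.29 with a term for the slide. Without the noisy array of day 100 the relative differences of let-7b, let-7c and let-7i that involve this day kept their calls. 2 further members then passed, let-7g on day 100 against the syngeneic grafts (-0.44, adjusted p = 0.033, limma) and let-7d for day 14 minus day 100 (0.27, adjusted p = 0.042). The family mean includes let-7e at its floor on that array, and all 13 relative calls also held with a mean taken without let-7e, an alternative chosen after seeing the data.

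As counts, 1 member was called on day 5, 2 on day 8, 4 on day 14 and none on day 100 against the syngeneic grafts, beside 20.4%, 36.9%, 44.7% and 34.0% of all miRNAs treated the same way in either direction. None was called for day 14 minus day 5 (6.80% of all miRNAs) or day 14 minus day 8 (0.971%). For day 14 minus day 100 it was 3 members, beside 59.2%, and for day 100 minus day 5 also 3, beside 40.8%.

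**Figure D3:**
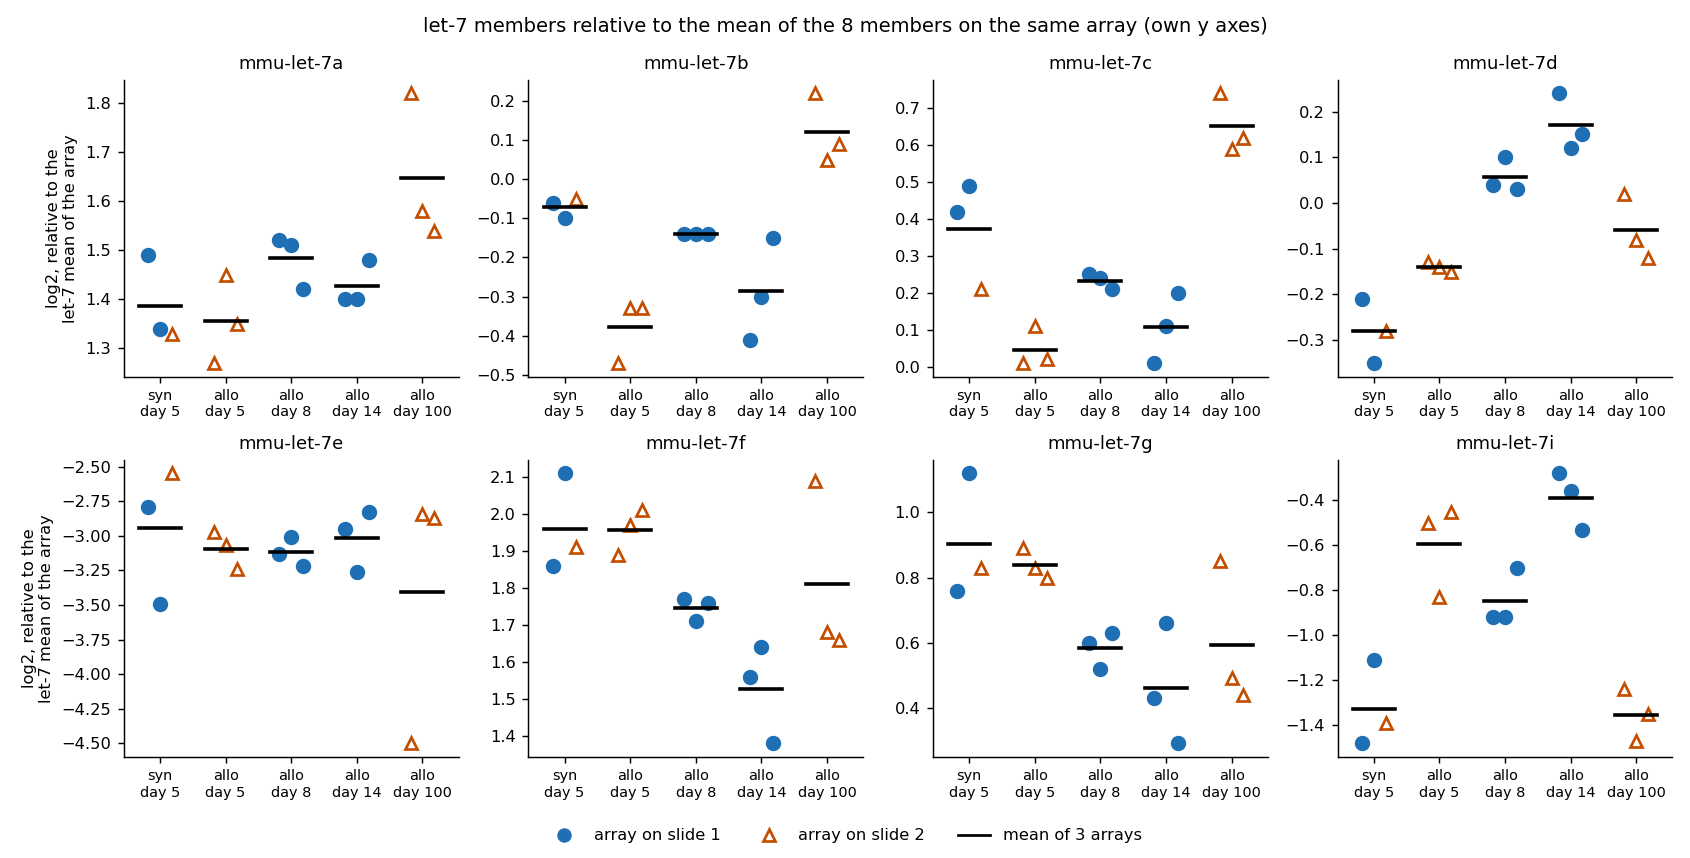
Level of each let-7 member (log2) relative to the mean of the 8 members on the same array, by group, with filled circles for slide 1, open triangles for slide 2 and a line at the mean of 3 arrays; each panel has its own y axis. let-7i on days 5, 8 and 14 lies above its 6 syngeneic and day 100 values, and let-7b and let-7c are highest on day 100.

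Members with similar sequence often, but not always, ran together over the 15 arrays. As a description over arrays that share groups, slides and a scaling factor, Pearson's r of the scaled log2 signals was 0.978 for let-7b and let-7c, which differ at 1 base, 0.973 for let-7f and let-7g, which differ at 2, and 0.957 for let-7a and let-7b. let-7g and let-7i also differ at 2 bases, and their r was -0.18. The r of let-7i with the other 7 members ranged from -0.27 (let-7c) to 0.46 (let-7d).

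Members of 1 genomic cluster varied in how closely they ran together. let-7a, let-7f and let-7d share the cluster on chromosome 13, and r was 0.761 for let-7a and let-7f, 0.866 for let-7a and let-7d, and 0.470 for let-7d and let-7f. How far a probe also takes up RNA of another member was not tested.

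**Figure D4:**
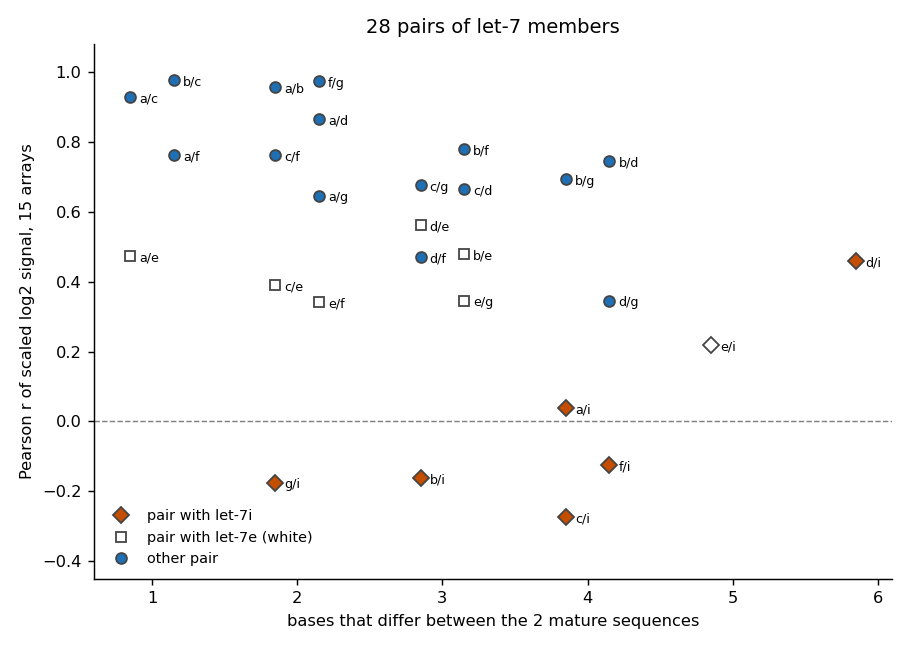
Pearson's r of scaled log2 signal over the 15 arrays for each of the 28 pairs of let-7 members, against the number of bases that differ between their mature sequences; points are labelled by the letters of the pair and shifted slightly sideways. White marks are pairs with let-7e, which is near the background. Of the 7 pairs with let-7i (diamonds) 6 lie below all other pairs, the exception being d/i, and f/g and b/c lie at the top.

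Among miRNAs encoded beside let-7, 3 of 6 were tested. miR-99a, next to let-7c on chromosome 16, was higher on day 100 than in the syngeneic grafts (0.76, adjusted p = 0.029, limma) and lower on day 14 than on day 100 by 0.99 (adjusted p = 0.0060). miR-125b-5p, which has a hairpin, Mir125b-1, with Mirlet7a-2 in Mir100hg, was at 0.80 (adjusted p = 0.025) and -0.92 (adjusted p = 0.0074) in these comparisons. Its signal was not assigned to a locus. Without the noisy array neither passed on day 100 against the syngeneic grafts (both at 0.64, adjusted p = 0.077, limma), and for day 14 minus day 100 both did, at -0.97 and -0.87 (adjusted p = 0.013 and 0.019). Over the 15 arrays r of miR-99a was 0.857 with let-7c, 0.866 with let-7a and 0.873 with let-7b, and -0.01 with let-7i. miR-98, beside Mirlet7f-2 on the X chromosome, passed in none of the 8 comparisons, and miR-99b, miR-100 and miR-125a-5p were too dim to test.

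miR-98 also carries the let-7 seed.
mmu-miR-98: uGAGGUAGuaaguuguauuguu
It was detected on 11 of 15 arrays. Of 6 listed miRNAs with a related seed, 4 were on the array and 2 were tested, miR-98 and miR-202-3p. miR-202-3p fell against the syngeneic grafts on day 5 (-0.98, adjusted p = 0.030, limma) and day 100 (-1.28, adjusted p = 0.011), and was at the floor on day 100 replicate 1, without which it was at -1.16 (adjusted p = 0.016). The 7 star arms of the family on the array, the strands usually discarded from the hairpin, were not tested, since none was detected on all arrays of a group.

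Outside the names above, the 5 tested miRNAs most like the family mean over the 15 arrays were miR-195 (r = 0.837), miR-365 (0.803), miR-29a (0.776), miR-497 (0.758) and miR-23b (0.738). The least like it were miR-144 (-0.548), miR-690 (-0.545) and miR-301a (-0.534). Without replicate 1 of day 100 the highest were miR-10a (0.888), miR-365 (0.856), miR-29a (0.848), miR-195 (0.846) and miR-497 (0.805), and the lowest miR-144 (-0.595), miR-301a (-0.579) and miR-1224 (-0.574). miR-10a and miR-1224 are named for this reason, after their values were seen. These are descriptions of the same arrays and carry no test.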

How the data were processed

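Total RNA of liver grafts was labelled with Cy3 and hybridised to 8 x 15 K Agilent mouse miRNA arrays in 1 color. The deposited intensity is the processed signal of each spot from Agilent's Feature Extraction software 9.5.1.1, on the linear scale after subtraction of background, and the authors had not normalized it between arrays. The deposited log2 table of the series was not used. Outlier spots were left out, spots were averaged by probe and probes summed by miRNA. Each array was scaled to the 75th percentile of the 52 miRNAs detected on all 15 arrays, floored at 0.02704 and taken to log2. A miRNA was detected where at least 0.5 of a probe's spots were well above background, and 103 miRNAs detected on all 3 arrays of a group were tested.

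limma (version 3.58.1, R 4.3.3) was fitted with 1 mean for each of 5 groups over all arrays. Adjusted p-values (Benjamini-Hochberg, within a comparison, threshold 0.05) rest on the spread between mice within groups. limma estimated that spread over all 5 groups and moderated it over the miRNAs tested. Having 3 mice a group limits the precision. The smallest exact two-sided p for 3 against 3 is 0.1, so single-value permutation tests were not used. Members, gene lists and tests were chosen with earlier results of these data known. The text names the 8 members, seed relatives, star arms, cluster neighbours, and the 5 tested miRNAs most and 3 least like the family mean. Marker lists stood for hepatocytes, leukocytes, erythroid cells (miR-451, miR-144 and miR-486: 1 of 2 tested was called higher on day 5, day 8 and day 14, 1 lower on day 8 and none on day 100) and endothelium or smooth muscle (miR-126-3p, miR-126-5p, miR-143 and miR-145: 1 tested, not called in any comparison). Alternatives were other scalings, probe summaries, filters, normexp, a lower floor, other fits, and the slide or replicate number as a block. Normexp was run on median spot intensities with an offset of 50 units. Using the dimmer probe, and a family mean without let-7e, were chosen after seeing the data. The fit was tested on simulated data. Same-numbered arrays were checked for pairing: 9 of 30 pairs had a correlation of deviations over 0.1 (range -0.649 to 0.448), so numbers were not taken to pair mice. No 2 arrays of the same group held identical values, and arrays of different groups were not compared in this way. Sequences and loci come from RefSeq.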

Additional observations from a re-analysis of the deposited data

Results flagged for a closer look

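Groups of 3 arrays were not tested for single outlying arrays. The members below differed between allograft days, each having been compared with the same syngeneic grafts, by limma's test of the day-to-day difference itself.

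For day 14 minus day 5 this was let-7f (-0.62). For day 14 minus day 100 these were let-7a (-0.76), let-7b (-0.95), let-7c (-1.09), let-7f (-0.83) and let-7g (-0.67). For day 100 minus day 5 these were let-7a (0.64), let-7b (0.85) and let-7c (0.96). Relative to the mean of the family, let-7b (-0.41), let-7c (-0.55) and let-7i (0.96) differed for day 14 minus day 100, and let-7b (0.50), let-7c (0.60) and let-7i (-0.76) for day 100 minus day 5. The comparisons of day 14 with day 5 and day 100 cross slides.

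Outside the main measurement, the star arm let-7d* was detected on 1 array, day 100 replicate 1, with an intensity of 264.5 units, against -9.9 to 5.4 units on the other 14. The star arms let-7b*, let-7c-1*, let-7c-2*, let-7f* and let-7g*, which were not detected, also had their highest intensities on this array (23.8 to 216.9 units), which has the additive error of 13.1 units given above. Only let-7i* did not (-3.5 units there). The part of that array's noise was not tested.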

How the results depend on the processing

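Of 606 values recomputed for the 17 called differences of single members, 463 kept their call and 2 reversed. For the 13 called relative to the family mean, 241 of 273 kept their call and 0 reversed. With 3 arrays a group and let-7e near the background, small changes could not be resolved. The causes of the changes below were not tested. Counts of members below stand without the share of all miRNAs called under the same setting.

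With the 75th percentile over all mouse miRNAs, of which each array left most undetected, the F test called 1 member, and 0 were called against the syngeneic grafts on any day or for day 14 minus day 5, and 1 for day 100 minus day 5. Without a filter the F test called 1, 0 were called on day 5, on day 8, lower on day 14 and for day 14 minus day 5, 3 lower for day 14 minus day 100 and 1 for day 100 minus day 5. With no scaling the medians against the syngeneic grafts were 0.52, 0.72, 0.40 and 1.02 on days 5, 8, 14 and 100 and 0.12 for day 14 minus day 5, where let-7f on day 14 reversed to 0.18 and let-7g to 0.17; the F test called 1, 2 were called higher on day 8 and on day 14, and 0 lower on day 14, for day 14 minus day 5, for day 14 minus day 100, and higher for day 100 minus day 5. With median scaling 2 were higher on day 8 and on day 14, 5 on day 100 and 1 for day 14 minus day 100, 2 were lower for day 14 minus day 5 and 1 for day 100 minus day 5, and the median for day 14 minus day 8 was -0.22.

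With normexp 0 were higher on days 5, 8 and 14, 5 lower on day 14 and 0 for day 14 minus day 5. With the dimmer probe 2 were higher on day 8 and on day 14, 0 on day 100 and 1 for day 14 minus day 100. Called lower were 3 for day 14 minus day 100 and 0 for day 14 minus day 5. The medians were -0.073 on day 14, 0.23 for day 14 minus day 5 and -0.41 for day 14 minus day 100. In the last let-7d reversed to 0.078. The reference value of each array also changed in this setting. With the main reference value the dimmer probes ranged from -0.66 (let-7f) to 0.22 (let-7d) for day 14 minus day 5. For day 14 minus day 100 they were then at -0.16 for let-7d, -0.68 for let-7a and -0.61 for let-7g. The dimmer-probe setting gave 0.078, -0.45 and -0.37 there. For day 14 minus day 5, 2 were lower with the brightest probe, the mean log2 of the probes, the software's total signal, a limma trend, the methods' t-test unadjusted and miRNAs detected on all 15 arrays, and 0 with a lower floor, scaling without let-7 and Benjamini-Hochberg on that t-test. For day 14 minus day 8, 1 was lower with the brightest probe, total signal, quantile scaling and miRNAs detected everywhere, 4 with only the groups compared, and 6 and 3 by the t-test before and after adjustment. On day 8, 2 were higher with quantile scaling, a trend and miRNAs detected everywhere. With the mean log2, total signal and unadjusted t-test 1 was higher for day 14 minus day 100, and with the last of these and total signal 1 was lower for day 100 minus day 5. With only the groups compared 0 were called on days 5, 8 and 100, lower on day 14 and for day 14 minus day 5. By the t-test 0 were lower on day 14 and 1 higher on day 100, and after adjustment 0 on all days and for day 100 minus day 5.

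With the slide as a block 0 were higher on day 5 and day 100 and 2 on day 8 and day 14, 1 was lower on day 14, 0 for day 14 minus day 5 and for day 14 minus day 100 (1 higher), and 1 for day 14 minus day 8 and day 100 minus day 5. The medians were -0.42, 0.41, -0.032 and 0.024 on days 5, 8, 14 and 100, 0.55 for day 14 minus day 5 and -0.12 for day 14 minus day 100, let-7d reversed to 0.38 in the last and let-7g to 0.023 for day 14 minus day 5. Within slide 1, 2 were higher on day 8 and 0 lower on day 14, with medians of 0.41 and -0.032, and within slide 2, 0 on day 5 and day 100, with medians of -0.42 and 0.024.

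The replicate numbers were not taken to pair the mice, and with the replicate block 1 member was higher on day 100 and 0 lower for day 14 minus day 5.

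Leaving out single arrays, the F test called 3 to 7 members. Called higher were 0 to 2 on day 8, 1 to 2 on day 14, 0 to 5 on day 100, 1 to 4 for day 100 minus day 5 and 0 to 1 for day 14 minus day 100. Called lower were 0 to 1 on day 5, 0 to 4 on day 14, 0 to 2 for day 14 minus day 5, 0 to 1 for day 14 minus day 8 and 0 to 1 for day 100 minus day 5. The medians ranged from -0.26 to 0.21 on day 5, -0.14 to 0.41 on day 8, -0.67 to -0.032 on day 14, 0.24 to 0.69 on day 100 and 0.20 to 0.59 for day 100 minus day 5.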
